A study of Mus musculus with 6 samples.

Results

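The genes described here encode the proteins of the mitochondrial ribosome. They were taken as all protein-coding genes whose symbol in the GENCODE M21 annotation of the mouse genome (GRCm38) starts with Mrpl or Mrps followed by a digit, which gave 78 of the 54532 genes listed in each library. Of these, 49 carry the symbol of a large subunit protein (Mrpl) and 29 that of a small subunit protein (Mrps). The rule used names only, and no measured value.

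Mitochondria keep ribosomes of their own. These translate a handful of membrane proteins of the respiratory chain from mRNAs transcribed inside the organelle, while every protein of the ribosome itself is encoded in the nucleus, made in the cytosol and imported. The large subunit holds the peptidyl transferase centre and the tunnel through which the new chain leaves towards the inner membrane, and the small subunit holds the centre where mRNA is decoded. Some of the proteins have counterparts in bacterial ribosomes and the others were added during the evolution of mitochondria. PGAM5, the protein that was knocked down, is a phosphatase of mitochondria.

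Levels of RNA come from 6 RNA-seq libraries of iBMDMs, mouse bone marrow-derived macrophages immortalized with retroviruses that carry v-raf and v-myc. Control cells (3 libraries) had received a lentivirus with a control shRNA and PGAM5 KD cells (3 libraries) a lentivirus with an shRNA against Pgam5. Both groups were treated with LPS at 100 ng/ml for 4 hours, so no value here describes an effect of LPS. The labels name 1 shRNA per group and do not say whether replicates were separate cultures, so the p-values measure the spread between these libraries, which may be technical.

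The depth recovered from the values was between 18163463 and 24388915 fragments per library. Pgam5 was at 17.1, 13.0 and 13.4 FPKM (fragments counted on a gene, divided by its exon length in kilobases and by library depth) in Control and at 4.33, 5.75 and 4.53 FPKM in PGAM5 KD libraries, which fits the labels. Of 8 macrophage markers, 7 were at 1 FPKM or more in all libraries and Mertk was listed at 0, and these 7 did not move one way. Adgre1, Fcgr1, Itgam and Cd14 rose, Lyz2, Cd68 and Csf1r fell, and the sum was 2802 to 2894 FPKM in Control and 2526 to 2544 FPKM in PGAM5 KD libraries. The part of these differences in the results was not tested. The neutrophil (5 genes), fibroblast (5 genes) and lymphocyte (6 genes) markers stayed under 1 FPKM in every library, and their summed level reached at most 0.328, 0.0168 and 0.211 FPKM. Summed over all genes, FPKM came to 304393 to 304889 in Control and 317936 to 324298 in PGAM5 KD libraries, so a gene that kept its share of the RNA has a slightly higher FPKM after knockdown. In bulk RNA, a change in the make-up of the cells and a change in RNA per cell cannot be told apart.

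Many mitochondrial ribosomal protein genes were slightly higher in PGAM5 KD cells, and the changes were small. Of the 77 members tested, 27 rose (35.1%) and 0 fell at a limma adjusted p-value under 0.05. Over all 10540 tested genes 16.8% rose and 14.9% fell. The log2 fold change was positive for 68 members and negative for 9, where 52.5% of all tested genes were positive. The median log2 fold change was 0.16 over the members and 0.01 over all tested genes, and the mean FPKM of a member changed by between -13.4% and 68.1% with a median of 12.1%. At an unadjusted p-value under 0.05, 37 members were higher and 3 lower (22.7% and 20.1% of all tested genes). None of the 77 passed the study's fold threshold of an absolute log2 fold change above 1, which 139 of all tested genes (1.32%) did together with the adjusted p-value. With voom on the recovered fragments, 31 members rose and 1 fell (18.8% and 18% of all tested genes). When FPKM was scaled to TPM, which gives every library the same total, 10 rose (13.0%) and 4 fell. Of all tested genes 10.3% and 21.6% did so. The median was 0.09 over the members and -0.05 over all tested genes. Correcting for exon length and GC gave 8 higher (10.4%) and 4 lower. The share of all tested genes that was higher was larger (13.4%), and 14.1% of them were lower. The log2 fold change was then positive for 56 members with TPM (40.4% of all tested genes) and for 58 with the correction (49.9% of all tested genes).

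In 38 members (49.4%) the lowest knockdown value exceeded the highest Control value, and in 4 members the highest knockdown value was under the lowest Control value. The corresponding shares of all tested genes were 24.2% and 22.9%. Of the 27 members that rose, 26 had groups that did not overlap, Mrpl43 being the exception. Each member was backed by between 212 and 4071 fragments per library and the standard error of its log2 fold change was between 0.037 and 0.14. The number of members that rose was 17 without Control replicate 2, 14 without Control replicate 3, 15 without PGAM5 KD replicate 2 and 16 without PGAM5 KD replicate 3, and 9 of the 27 passed whichever library was left out. The exact permutation test of a single gene, two-sided, cannot go below p = 0.1 with 3 libraries against 3.

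**Figure D1:**
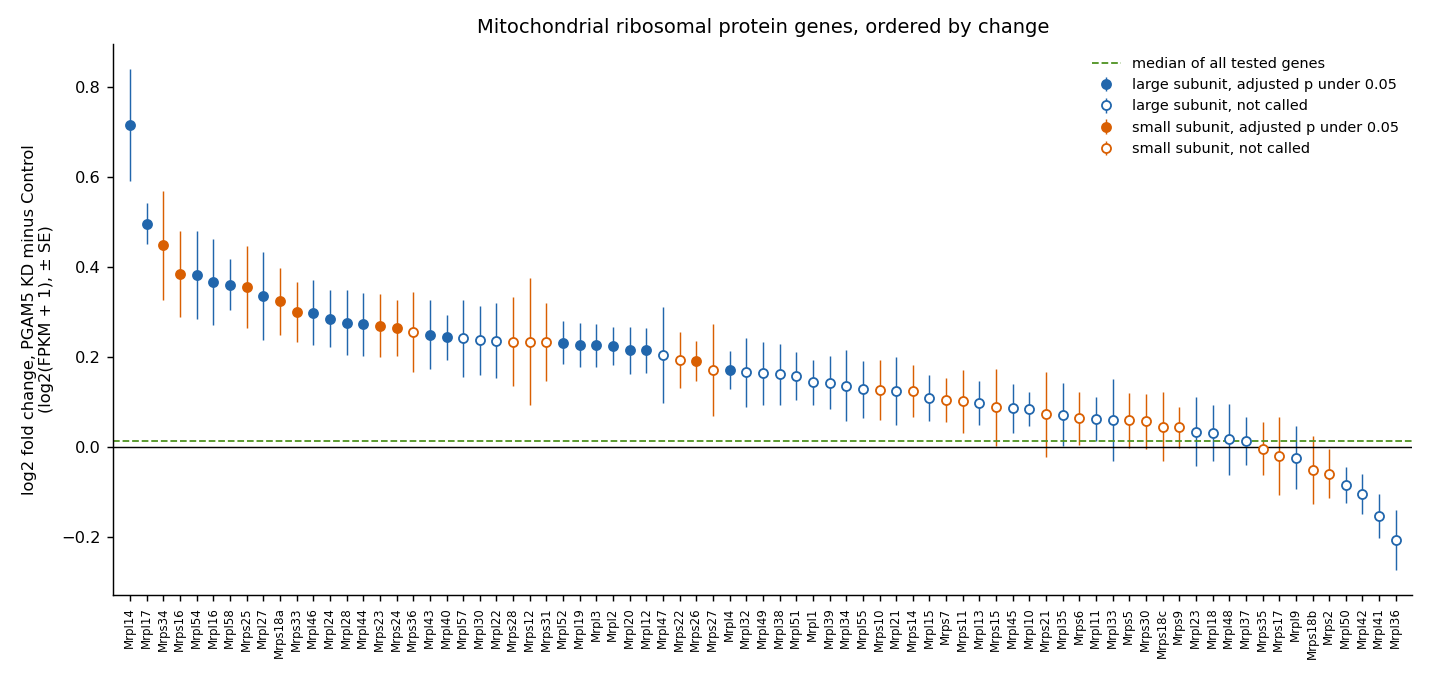
Log2 fold change (PGAM5 KD minus Control, on log2(FPKM + 1)) of the 77 tested mitochondrial ribosomal protein genes, ordered by size. Bars are standard errors, blue marks Mrpl and orange Mrps genes, filled points passed the limma adjusted p-value of 0.05, and the dashed line is the median of all tested genes. The points run from 0.71 for Mrpl14 to -0.21 for Mrpl36, 68 lie above 0, and filled points of both colours stand towards the left.

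A group of 4 members, all of the large subunit, was called higher in the analysis above and in each alternative setting except a test against a 1.2-fold change. They were Mrpl17, Mrpl14, Mrpl58 and Mrpl3, of which Mrpl3 was chosen after its values were seen. Their promoters are printed because they belong to the most stable changes, and that of Mrpl36, also chosen after its values were seen, because it had the lowest log2 fold change of the members. Each window runs from 250 bases before to 50 bases after the start of the gene in RefSeq (GRCm38.p6), on the gene's own strand and 5′ to 3′. Capitals mark matches, on either strand, to CCGGAAG (the core of sites for ETS factors such as GABP), the NRF1 palindrome with any base at its sixth position, ATGGCGG (found in YY1 sites) or CACGTG (the E-box that MYC and other factors bind).
Mrpl17, chr7:105811038-105811337, minus strand: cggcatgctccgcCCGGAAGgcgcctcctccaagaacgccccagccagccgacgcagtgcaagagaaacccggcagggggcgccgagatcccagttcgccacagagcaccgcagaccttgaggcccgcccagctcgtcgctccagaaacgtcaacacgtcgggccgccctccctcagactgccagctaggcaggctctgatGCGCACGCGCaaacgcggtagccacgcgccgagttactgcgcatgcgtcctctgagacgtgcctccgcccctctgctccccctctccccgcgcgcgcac
Mrpl14, chr17:45686099-45686398, plus strand: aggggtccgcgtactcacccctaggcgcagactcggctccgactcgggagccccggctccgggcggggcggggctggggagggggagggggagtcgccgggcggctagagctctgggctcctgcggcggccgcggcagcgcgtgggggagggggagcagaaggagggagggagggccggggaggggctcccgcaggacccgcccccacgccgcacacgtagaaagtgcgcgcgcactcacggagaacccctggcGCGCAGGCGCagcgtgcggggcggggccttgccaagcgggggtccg
Mrpl58, chr11:115403502-115403801, plus strand: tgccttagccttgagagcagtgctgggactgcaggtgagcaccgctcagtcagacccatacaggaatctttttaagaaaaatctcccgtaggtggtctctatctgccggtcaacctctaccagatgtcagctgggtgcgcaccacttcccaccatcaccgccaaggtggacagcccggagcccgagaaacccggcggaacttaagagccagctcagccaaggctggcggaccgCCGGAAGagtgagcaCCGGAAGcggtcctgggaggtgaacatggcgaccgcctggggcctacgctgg
Mrpl3, chr9:105053018-105053317, plus strand: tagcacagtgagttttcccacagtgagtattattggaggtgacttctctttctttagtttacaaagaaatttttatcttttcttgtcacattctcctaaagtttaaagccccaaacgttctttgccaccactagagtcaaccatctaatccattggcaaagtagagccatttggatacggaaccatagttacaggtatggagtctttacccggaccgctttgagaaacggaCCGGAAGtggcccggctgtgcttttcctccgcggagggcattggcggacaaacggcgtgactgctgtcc
Mrpl36, chr13:73330759-73331058, plus strand: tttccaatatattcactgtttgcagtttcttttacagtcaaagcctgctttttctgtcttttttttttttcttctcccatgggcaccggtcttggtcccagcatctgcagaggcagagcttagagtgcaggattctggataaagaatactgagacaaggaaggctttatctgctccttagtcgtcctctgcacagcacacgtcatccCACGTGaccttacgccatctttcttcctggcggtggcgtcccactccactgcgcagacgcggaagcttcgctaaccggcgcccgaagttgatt
The ETS core began 19 bases before the start in Mrpl3, 17 and 2 bases before it in Mrpl58, and 237 bases before it in Mrpl17. The NRF1-type match began 49 bases before the start in Mrpl17 and 4 bases after it in Mrpl14, and the E-box of Mrpl36 began 43 bases before its start. RefSeq and GENCODE starts can differ, and the RefSeq start of Mrpl36 lies inside its GENCODE gene (chr13:73328513-73332178).

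Mrpl17 (chr7:105803206-105811099, minus strand), the counterpart of bacterial L17, was at 14.5, 14.7 and 15.6 FPKM in Control and at 20.8, 21.7 and 21.9 FPKM in PGAM5 KD libraries. The groups were far apart and the libraries of each lay close together. The log2 fold change was 0.50 (SE 0.046, limma adjusted p = 0.000379), and Mrpl17 was the 1 member that also passed a test against a 1.2-fold change. Mrpl14 (chr17:45686322-45698495, plus strand), a protein at the interface between the subunits, was at 18.7, 16.8 and 14.2 FPKM in Control and at 32.6, 25.5 and 25.4 FPKM in PGAM5 KD libraries. All knockdown libraries were above all Control libraries, with PGAM5 KD replicate 1 the highest of the 6. Its log2 fold change of 0.71 (SE 0.12, limma adjusted p = 0.00579) was the largest of the members.

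Mrpl58 (chr11:115403752-115412674, plus strand), a peptidyl-tRNA hydrolase that rescues stalled ribosomes and is built into the large subunit, was at 7.88, 8.42 and 8.90 FPKM in Control and at 10.9, 11.4 and 10.8 FPKM in PGAM5 KD libraries. The groups did not overlap, and the log2 fold change was 0.36 (SE 0.056, limma adjusted p = 0.00377). Mrpl3 (chr9:105053239-105079888, plus strand), the counterpart of bacterial L3 near the peptidyl transferase centre, was at 18.8, 19.8 and 20.4 FPKM in Control and at 22.1, 23.8 and 23.6 FPKM in PGAM5 KD libraries. Again all knockdown libraries were the higher ones, with a log2 fold change of 0.23 (SE 0.049, limma adjusted p = 0.0134).

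**Figure D2:**
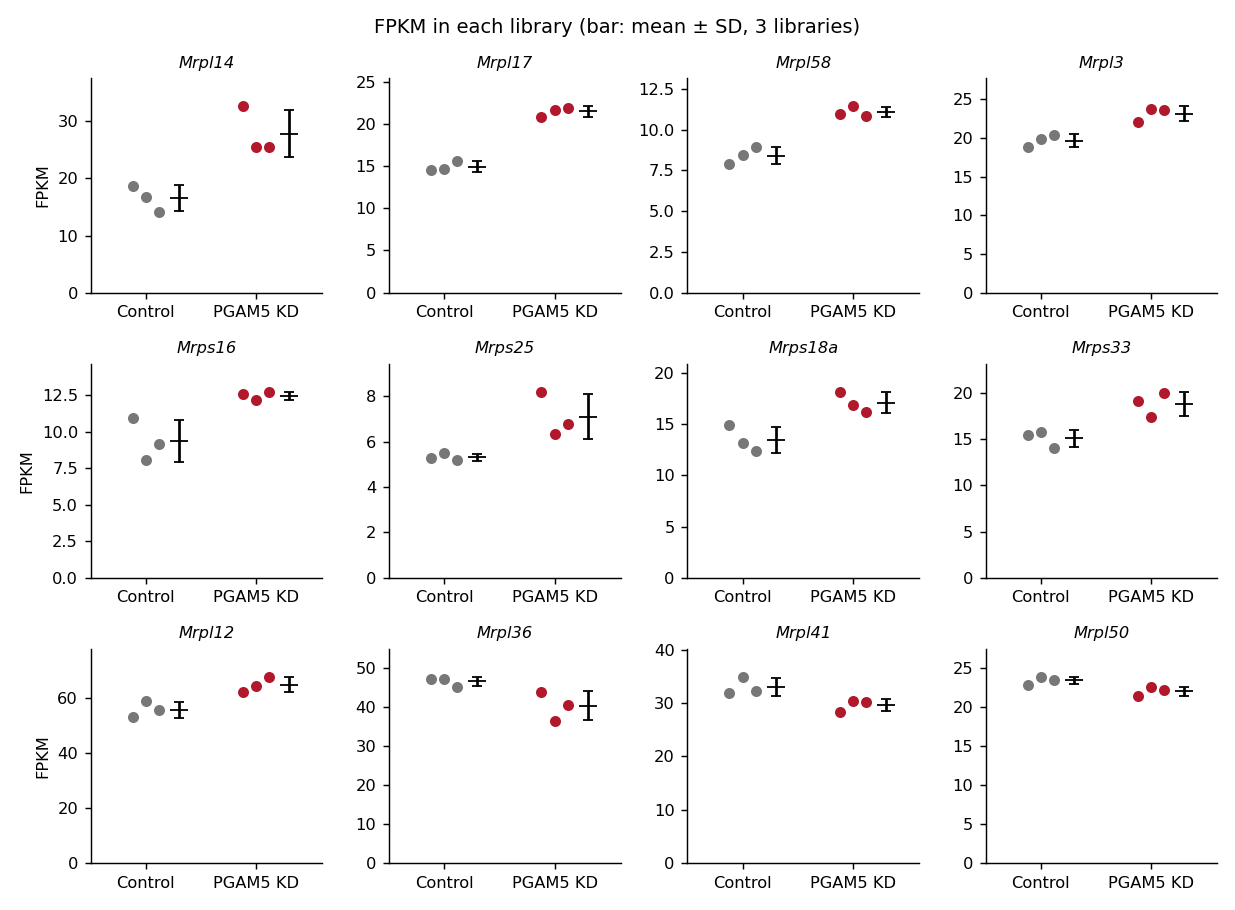
FPKM of 12 mitochondrial ribosomal protein genes in each library, with the 3 Control libraries in grey, the 3 PGAM5 KD libraries in red, and the mean ± SD of each group in black. In the panels of Mrpl14, Mrpl17, Mrpl58 and Mrpl3 every red point lies above every grey point, and in those of Mrpl36, Mrpl41 and Mrpl50 every red point lies below.

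In the large subunit, 19 of 48 tested genes rose (39.6%), 43 had a positive log2 fold change, and the median was 0.16. With TPM 6 were higher and 4 lower (12.5% higher, against 10.3% of all tested genes), and with the GC and length correction 5 were higher and 4 lower (10.4% higher, against 13.4%). Beside the 4 genes above, the larger changes were those of Mrpl54, Mrpl16, Mrpl27, Mrpl46, Mrpl24, Mrpl28 and Mrpl44, with log2 fold changes between 0.27 and 0.38. With TPM, Mrpl24 stayed past the threshold and the other 6 did not (adjusted p between 0.0534 and 0.0849). With the GC and length correction none of these 7 passed (log2 fold changes between 0.13 and 0.28, adjusted p between 0.0576 and 0.209). Mrpl54, which has no bacterial counterpart, was at 46.5, 40.0 and 41.8 FPKM in Control and at 64.0, 55.1 and 49.6 FPKM in PGAM5 KD libraries. Its knockdown libraries were all higher but differed among themselves (56.2 ± 7.30 FPKM, SD, n = 3, against 42.8 ± 3.36), and the limma adjusted p-value was 0.0241. Mrpl16, which lies near the tRNA sites, was at 26.8, 33.7 and 27.5 FPKM in Control and at 37.5, 41.2 and 35.2 FPKM in PGAM5 KD libraries. The groups did not overlap, but Control replicate 2 came close to the lowest knockdown library (log2 fold change 0.37, SE 0.095, limma adjusted p = 0.0264). Mrpl27, a counterpart of a bacterial protein that reaches towards the peptidyl transferase centre, had a log2 fold change of 0.34 (SE 0.097, limma adjusted p = 0.0372).

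The stalk, which recruits the GTPases that drive translation, is formed by Mrpl12 on a base of Mrpl10 and Mrpl11, and 1 of these 3 genes rose. Mrpl12 was at 53.1, 58.9 and 55.7 FPKM in Control and at 62.4, 64.7 and 67.9 FPKM in PGAM5 KD libraries. Every knockdown library was higher (log2 fold change 0.21, SE 0.050, limma adjusted p = 0.0179). The call was lost with TPM (0.14, adjusted p = 0.0690) and with the GC and length correction (0.089, adjusted p = 0.272). For Mrpl10 and Mrpl11 the values were 0.08 and 0.06 (adjusted p = 0.127 and 0.379), and both turned negative with the GC and length correction. Of 4 genes listed for the exit of the tunnel and its membrane contact, which are not all the genes of that region, Mrpl24 rose (log2 fold change 0.29, SE 0.062, limma adjusted p = 0.0142). The other 3 had values of 0.24 for Mrpl22 (adjusted p = 0.0700), 0.03 for Mrpl23 (adjusted p = 0.766) and 0.09 for Mrpl45, which links the ribosome to the inner membrane (adjusted p = 0.272). Mrpl17, described above, also lies near the exit, as does Mrpl47, named after its values were seen, with a value of 0.20 (adjusted p = 0.19). Whether genes within the stalk or around the exit differed from each other was not tested.

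In the small subunit, 8 of 29 genes rose (27.6%), 25 had a positive log2 fold change and the median was 0.13. With 1 library left out, between 3 and 9 rose. With TPM 4 were higher (13.8%, against 10.3% of all tested genes) and with the GC and length correction 3 (10.3%, against 13.4%). None was lower by limma in either. The genes that rose were Mrps34, Mrps16, Mrps25, Mrps18a, Mrps33, Mrps23, Mrps24 and Mrps26. With TPM, Mrps34, Mrps16, Mrps18a and Mrps33 stayed past the threshold, and with the GC and length correction Mrps25, Mrps18a and Mrps26 did. Mrps16, a counterpart of bacterial S16, was at 10.9, 8.07 and 9.16 FPKM in Control and at 12.5, 12.2 and 12.7 FPKM in PGAM5 KD libraries. The Control libraries were spread more widely than the knockdown libraries, which were all higher (log2 fold change 0.38, SE 0.096, limma adjusted p = 0.0227). Mrps33, which has no bacterial counterpart, was at 15.5, 15.8 and 14.0 FPKM in Control and at 19.1, 17.4 and 19.97 FPKM in PGAM5 KD libraries. The groups did not overlap (log2 fold change 0.30, SE 0.067, limma adjusted p = 0.0147). Mrps12, a protein of the decoding centre, was at 11.2, 10.3 and 11.2 FPKM in Control and at 10.1, 13.6 and 15.8 FPKM in PGAM5 KD libraries. Its groups overlapped, since PGAM5 KD replicate 1 was the lowest library, and the value of 0.23 (SE 0.14) had a limma adjusted p-value of 0.252. Mrps36, which by present knowledge is a component of the 2-oxoglutarate dehydrogenase complex and not of the ribosome, differed by 0.25 on the log2 scale (adjusted p = 0.0674).

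Mammals have 3 paralogs of bacterial S18, of which 1 rose. Mrps18a, whose product is found in the large subunit despite its symbol, was at 14.9, 13.2 and 12.4 FPKM in Control and at 18.2, 16.9 and 16.2 FPKM in PGAM5 KD libraries. All knockdown libraries were higher, and the log2 fold change was 0.32 (SE 0.074, limma adjusted p = 0.0169). Mrps18b and Mrps18c, which belong to the small subunit, had log2 fold changes of -0.05 (SE 0.075, adjusted p = 0.641) and 0.04 (SE 0.077, adjusted p = 0.691). A difference between the paralogs was not tested.

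In 4 members, all of the large subunit, every knockdown library was below every Control library, although none passed the adjusted p-value. Mrpl36, a counterpart of bacterial L36, was at 47.2, 47.2 and 45.04 FPKM in Control and at 43.9, 36.5 and 40.4 FPKM in PGAM5 KD libraries, with a log2 fold change of -0.21 (SE 0.066, limma adjusted p = 0.0520). Mrpl41, Mrpl42 and Mrpl50, none of which has a bacterial counterpart, had values of -0.15 (adjusted p = 0.0518), -0.10 (adjusted p = 0.113) and -0.08 (adjusted p = 0.149). These 4 genes, chosen after their values were seen, are the 4 members that fell when the values were scaled to TPM or corrected for GC content and length.

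The subunits were compared by their sums. Since FPKM is a level per length, the members of a subunit can be added within a library. The large subunit genes summed to 1262, 1233 and 1215 FPKM in Control and to 1400, 1406 and 1399 FPKM in PGAM5 KD libraries, and the small subunit genes to 563, 543 and 555 FPKM and to 603, 630 and 622 FPKM. In both subunits all knockdown libraries were above all Control libraries, by 13.4% in the mean for the large and 11.7% for the small subunit. The ratio of large to small was 2.24, 2.27 and 2.19 in Control and 2.32, 2.23 and 2.25 in PGAM5 KD libraries. These ratios overlapped between the groups (2.23 ± 0.0408 against 2.27 ± 0.0483, SD, n = 3). As a share of all FPKM, the members together took 0.598%, 0.583% and 0.581% in Control and 0.630%, 0.628% and 0.625% in PGAM5 KD libraries. On that scale, which is TPM, the rise of the mean was 7.35% for the large and 5.73% for the small subunit.

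**Figure D3:**
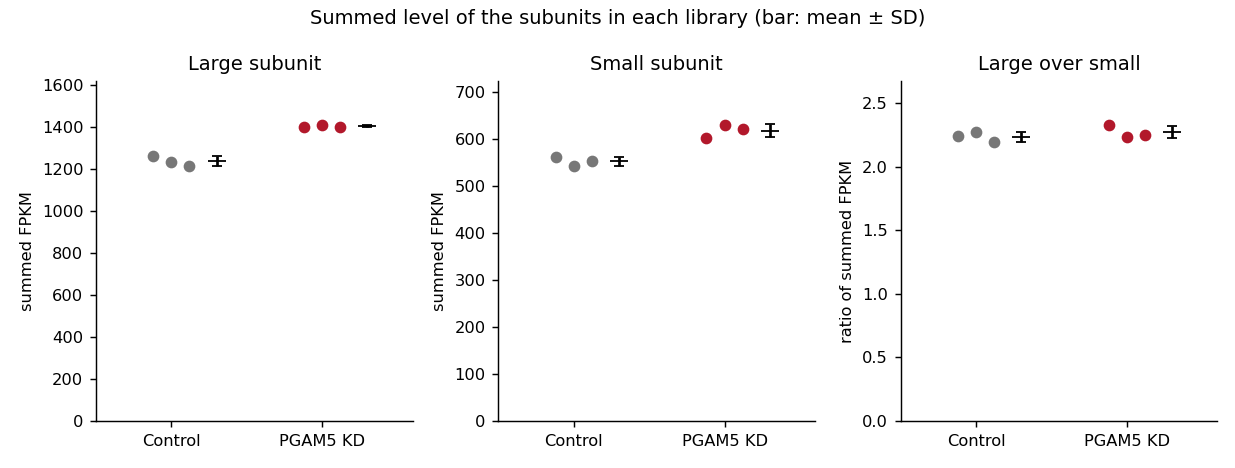
Summed FPKM of the large subunit genes, of the small subunit genes, and the ratio of these sums in each library, with 3 Control libraries in grey, 3 PGAM5 KD libraries in red and the mean ± SD in black. Red points lie above grey points for both sums, at 1399 to 1406 against 1215 to 1262 FPKM for the large subunit, and overlap with them for the ratio.

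Gene by gene, the median log2 fold change was 0.04 higher in the large than in the small subunit. The SD between libraries of a group was 0.014 for the difference large minus small. With 1 library left out the difference between the subunits was 0.0078 to 0.052. With the GC and length correction this difference was -0.0069, so the order turned. Taken within a library, this difference was -0.032, 0.0060 and -0.0070 in Control and 0.014, 0.020 and 0.011 in PGAM5 KD libraries, higher in all 3 knockdown libraries but by hundredths of a log2 unit. The median over a subunit, taken in each library as the deviation from the Control mean, was 0.14, 0.18 and 0.18 for the large and 0.12, 0.16 and 0.17 for the small subunit in the PGAM5 KD libraries. Assigning Mrps30 and Mrps18a to the large subunit, where they sit in the structure, and Mrps36 to neither left 20 of 50 large subunit genes and 7 of 26 small subunit genes higher. Of the members with a counterpart among bacterial ribosomal proteins, 15 of 48 rose (31.25%, median 0.13). Of those without one, 12 of 29 rose (41.4%, median 0.19), where 16.8% of all tested genes rose. Within the small subunit these counts were 3 of 18 (16.7%, median 0.09) and 5 of 11 (45.5%, median 0.23). Within the large subunit they were 12 of 30 (40%, median 0.17) and 7 of 18 (38.9%, median 0.16). No test of these differences was made.

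Short genes were higher in PGAM5 KD libraries in general, and the members are short. Their median exon length was 2533 bases, against 4476 bases for the 9338 tested protein-coding genes. Over these 9338 genes, the Spearman correlation of the log2 fold change with exon length was -0.36, a description across genes that share the same 6 libraries, and over the 77 members it was -0.23. The 935 shortest protein-coding genes, with up to 1788 bases, had a median log2 fold change of 0.16 and the 29 members among them 0.23. In the 9th of the 10 length bins the medians were -0.07 for 933 genes and 0.10 for 6 members. In each of the 9 bins that held members, their median was above that of all protein-coding genes of the bin, although several bins held fewer than 10 members. After the correction for GC content and length, the median of the members was 0.10 and that of all tested genes 0.00. Both the bins and the correction use the length of all annotated exons of a gene, which its main transcript need not use in full. What part length, its measure or RNA quality had in the remaining difference was not tested. The median GC content was alike (49.7% in the members and 49.4% in all tested protein-coding genes). The Spearman correlation of the log2 fold change with GC content was 0.23 over the members and 0.05 over all tested protein-coding genes.

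**Figure D4:**
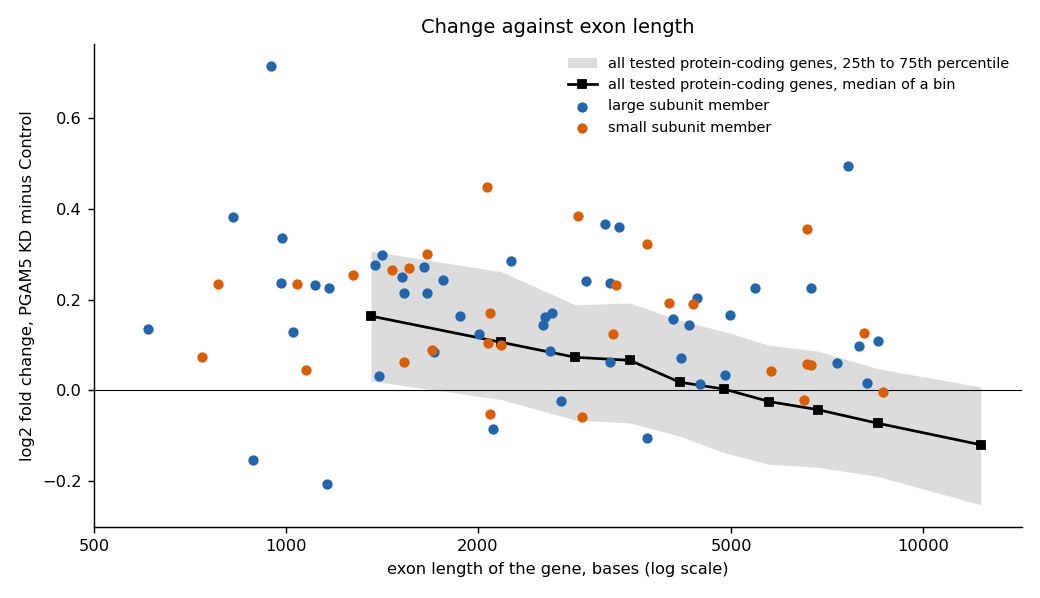
Log2 fold change (PGAM5 KD minus Control) against exon length on a log scale. Black squares are medians and the grey band the 25th to 75th percentile of 9338 tested protein-coding genes in 10 bins of length, and the coloured points are the 77 members. The black line falls from 0.16 in the shortest to -0.12 in the longest bin, and of the members with long exons some lie above the band, such as Mrpl17 (0.50), and others inside it, such as Mrps35 (-0.0036) and Mrpl48 (0.02).

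Several members share exon sequence with a neighbouring gene, and the notes on the libraries do not say whether strand was used in counting, so fragments of such pairs cannot be told apart with certainty. Of the 78 members, 18 overlap another gene over at least 10% of their exon bases. Mrps34 was at 14.2, 14.3 and 13.3 FPKM in Control and at 15.5, 21.3 and 21.9 FPKM in PGAM5 KD libraries, with a log2 fold change of 0.45 (SE 0.12, limma adjusted p = 0.0301). It overlaps Mapk8ip3 and Nme3 over 77.8% of its exons, and the fragments of the 3 genes together differed by only 0.05 on the log2 scale (pooled SD between libraries 0.11). Mrps25 was at 5.27, 5.49 and 5.19 FPKM in Control and at 8.22, 6.34 and 6.79 FPKM in PGAM5 KD libraries, with a log2 fold change of 0.36 (SE 0.090, limma adjusted p = 0.0239). It overlaps Nr2c2, and the summed fragments of that pair differed by 0.09 (pooled SD 0.12), while the share given to Mrps25 went from between 46.8% and 49.4% in Control to between 59.0% and 60.8% in PGAM5 KD libraries. For both, the difference of the sum was within its pooled SD. The sums also hold the neighbours, and Mapk8ip3 and Nr2c2 had log2 fold changes of -0.22 and -0.19 (limma adjusted p = 0.0862 and 0.133). A sum therefore does not measure the member alone, and whether fragments passed between the genes was not tested.

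The sums of other pairs were as follows. Mrpl14 and Tmem63b together differed by 0.45 (pooled SD 0.079), with a share for Mrpl14 of 37.7% to 44.8% in Control and 47.4% to 55.8% in PGAM5 KD libraries. Mrpl46 and Mrps11 are both members, start head to head and overlap, and their summed fragments differed by 0.23 (pooled SD 0.060). Mrpl46 rose (log2 fold change 0.30, SE 0.073, limma adjusted p = 0.0210) and Mrps11 had a value of 0.10 (adjusted p = 0.318). The sums of Mrpl24 with Rrnad1, Mrpl43 with Twnk and Mrpl19 with Gcfc2 differed by 0.10, 0.11 and 0.11, with pooled SDs of 0.067, 0.070 and 0.051, where the values of Mrpl24, Mrpl43 and Mrpl19 alone were 0.29, 0.25 and 0.23. The share of Mrpl24 went from between 62.5% and 67.7% in Control to between 73.7% and 76.8% in PGAM5 KD libraries. Similar sequences elsewhere in the genome, at 85% identity or more and all in processed pseudogenes, were found for 30 members. In 5 of them such a sequence held more than 5% of the fragments of the pair in some library. Mrps33 with its pseudogene Gm5776 differed by 0.25 in the sum (pooled SD 0.072), and Mrps10 with AC154457.3 by 0.17 (pooled SD 0.060). Among the 36 members with neither such an overlap nor a similar sequence, 12 rose and the median was 0.15.

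Levels differed more among the members than any member differed between the groups. Mean FPKM over the 6 libraries ran from 4.58 to 80.8, a 17.7-fold range, with a median of 21.9 for the large and 16.8 for the small subunit. The highest were Mrpl34 (80.8 FPKM), Mrpl52 (76.2), Mrps21 (74.7), Mrpl12 (60.5) and Mrpl28 (53.3). The lowest were Mrpl33 (4.58 FPKM), Mrps35 (4.73), Mrpl48 (4.84), Mrps25 (6.22) and Mrpl32 (6.73). This order goes with the annotated exon length, which was 607 to 1532 bases in the first 5 genes and 4982 to 8631 bases in the last 5 (Spearman -0.73 between FPKM and exon length over 77 members). FPKM here is divided by the length of all annotated exons of a gene, so a gene with long exons that its main transcript does not use is listed too low. Of the 5 highest, Mrpl52, Mrpl12 and Mrpl28 rose, and of the 5 lowest, Mrps25 did. Level and change were hardly related (Spearman 0.11 over the 77 members).

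Mrpl53 was listed at 0 in all libraries and was not tested. Of its exon bases 88.0% overlap Ccdc142os and Gm42688, and such overlaps can leave a gene without counted fragments. The 0 is therefore no measure of its expression.

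The members lie on 17 chromosomes, with 11 on chromosome 11 and 8 on chromosome 17, and 5 rose on each of these. A start within 1000 bases of the start of a protein-coding gene on the opposite strand was found for 33 of the 77 tested members (42.9%), against 18.8% of all tested protein-coding genes. These are starts in GENCODE.

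RefSeq promoters were at hand for 69 members, 43 of the large and 26 of the small subunit. The ETS core CCGGAAG, counted on both strands, was in 26 of the 69 windows (37.7%), against 9.93% of all 27025 genes and 23.7% of the 7508 tested protein-coding genes with a window. The NRF1 palindrome was in 3 windows (4.35%, against 2.73% of tested protein-coding genes), and its looser form with any base at the sixth position, which includes it, was in 13 (18.8%, against 13.6%). The long YY1 motif was in 5 windows (7.25%, against 2.32%), and its short form ATGGCGG, which lies within it, in 13 (18.8%, against 11%). The E-box CACGTG was in 5 windows (7.25%, against 12.5%). The ETS core was in 11 of the 23 members that rose and in 14 of the 45 tested members that did not, and in 15 of 43 large and 11 of 26 small subunit genes. A match only says that these letters are present, and no binding was measured.

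Other genes of mitochondrial translation are given by counts and medians, and no difference from the members was tested. Of 5 mitochondrial ribosomal proteins with other names, 3 rose and the median log2 fold change was 0.27. Chchd1 was at 39.7, 47.2 and 38.4 FPKM in Control and at 57.3, 58.9 and 53.7 FPKM in PGAM5 KD libraries (log2 fold change 0.43, SE 0.080, limma adjusted p = 0.00713). Aurkaip1 and Dap3 rose as well (0.27 and 0.16), and Gadd45gip1 and Ptcd3 had values of 0.29 and -0.09 (adjusted p = 0.0629 and 0.15). With TPM 2 of the 5 were higher and 1 lower. Of 24 tested genes for ribosome assembly and rRNA modification, 5 rose (20.8%, against 16.8% of all tested genes) and 1 fell (median 0.02). With TPM, 2 were higher and 2 lower (median -0.05), and with the GC and length correction 2 were higher and 1 lower (median -0.04). The 5 were Ddx28 (0.45), Mettl15 (0.41), Mrm2 (0.36), Malsu1 (0.30), which docks on the protein of Mrpl14, and Dhx30 (0.20), and Fastkd2 fell by 0.23 on the log2 scale. Of 18 mitochondrial translation factors, Tufm (0.11), the elongation factor that brings tRNAs, rose and Lrpprc (-0.31), which stabilizes mitochondrial mRNAs, fell (median -0.05). The share that rose was 5.56%, against 16.8% of all tested genes. With TPM and with the correction 0 of the 18 were higher by limma, and 2 and 1 were lower. Of 17 mitochondrial aminoacyl-tRNA synthetases, 2 rose (11.8%, against 16.8% of all tested genes) and 1 fell (median -0.02). With TPM 1 was higher (5.88%, against 10.3%) and 2 were lower (median -0.09).

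The mRNAs that these ribosomes translate were lower. Of the 12 tested mRNAs encoded in mitochondrial DNA, 0 rose and 11 fell by limma (median -0.71), and the other had a value of -0.08. At an unadjusted p-value under 0.05 the counts were also 0 and 11. The mRNA mt-Cytb, which encodes cytochrome b, was at 1244, 1337 and 1272 FPKM in Control and at 797, 753 and 709 FPKM in PGAM5 KD libraries. The groups were far apart (log2 fold change -0.77, SE 0.049, limma adjusted p = 8.51e-05). With TPM or with the correction for GC content and length, 11 fell again. These values come from libraries made with poly(A) selection.

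Genes for other large assemblies were counted in the same way. Of 77 tested nuclear genes for subunits of oxidative phosphorylation, 28 rose and 1 fell (median 0.14), and of 85 tested genes for cytosolic ribosomal proteins, 53 rose and 2 fell (median 0.21). With TPM these counts were 13 and 2, and 38 and 2. With the GC and length correction they were 11 and 3 (14.3% higher, against 13.4% of all tested genes) for oxidative phosphorylation, and 29 and 2 (34.1% higher) for the cytosolic ribosome. Of 7 tested regulators that textbooks name for genes of mitochondrial proteins, Esrra rose, from 13.9, 14.1 and 14.3 FPKM in Control to 19.0, 20.8 and 20.9 FPKM in PGAM5 KD libraries (log2 fold change 0.49, SE 0.049, limma adjusted p = 0.000548). Myc (-0.25) and Pprc1 (-0.28) fell. Nrf1, Gabpa and Yy1 had values of 0.02, -0.06 and -0.04, with adjusted p-values of 0.867, 0.328 and 0.497, and Ppargc1b had -0.33 (adjusted p = 0.129). With TPM 1 of the 7 was higher and 3 were lower, and the value of Nrf1 turned negative.

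**Figure D5:**
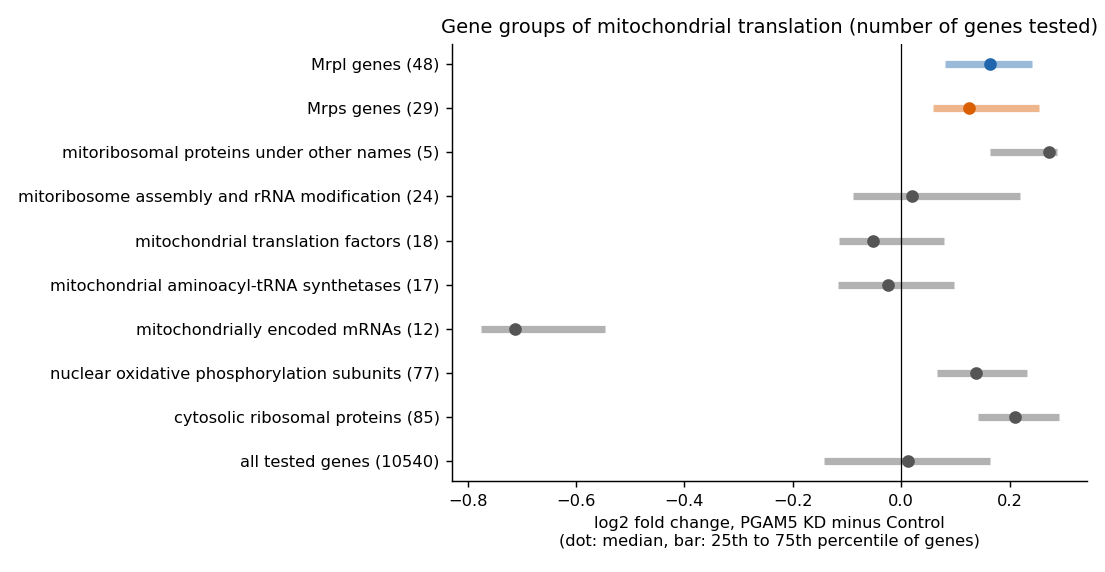
Median (dot) and 25th to 75th percentile (bar) of the log2 fold change, PGAM5 KD minus Control, over the tested genes of each group, with the number tested in brackets. The Mrpl and Mrps genes have medians of 0.16 and 0.13, close to the nuclear oxidative phosphorylation genes at 0.14 and under the cytosolic ribosomal proteins at 0.21, and the mitochondrially encoded mRNAs stand apart at -0.71.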

How the data were processed

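RNA-seq libraries were made from poly(A) RNA of LPS-treated Control and PGAM5 KD iBMDMs (3 each). The authors deposited 1 table of FPKM per library for 54532 genes. The submitters' processing notes name HISAT2 2.0.5, featureCounts 1.5.0-p3 and the build mm10, which is GRCm38. The annotation and strand setting are not given in the sources used here. Of the genes, 54495 were in GENCODE M21. FPKM times exon length fell within 0.01 of whole fragments for 96.8% to 97.1% of values under 1000 fragments, which gave the depth and the fragments. The precision of single genes was taken from the spread between libraries.

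Values of log2(FPKM + 1) were tested with limma 3.58.1 (R 4.3.3, two-sided, empirical Bayes moderation with trend) for the 10540 genes whose FPKM averaged 1 or more, with Benjamini-Hochberg adjustment over all of them, at an adjusted p-value of 0.05. Fold changes on this scale understate the change of low genes. Members and lists were chosen with earlier results of these data known, so lists are given as counts and medians, without a test. On simulated data for this comparison (10524 genes), 67 of 99 genes changed 1.3-fold and 95 of 97 changed 2-fold were recovered, with 9 false calls. The simulation gave all genes the same dispersion and put in no shift with exon length or in total FPKM. Its false calls are therefore no estimate of those in these data. Similar genes were found with blastn 2.17.0 (at least 85% identity over 150 bases). Motifs were searched in RefSeq promoters (GRCm38.p6). Libraries of a group differed by more than sampling noise (chi-square per degree of freedom 5.06 to 8.92).

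Named members are the 15 with the largest rise among those past the threshold, the 5 highest and 5 lowest in level, those of the stalk, the tunnel exit, the S18 paralogs and decoding, members with overlapping or similar genes, members that were not tested, and those marked as chosen after their values were seen. Of each other list at most 5 genes past the threshold are named by size of change, and Dhx30, mt-Cytb, Gadd45gip1, Ptcd3, Nrf1, Gabpa, Yy1 and Ppargc1b were added after their values were seen. Alternatives were a pseudocount of 0.1, other filters, TPM, median centring, quantile normalization, a GC and length correction, other variance models, voom, a replicate block, leaving out each library, a test against a 1.2-fold change, and other sets of members. Other steps used Python 3.11.15 with pandas 2.3.3.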

Additional observations from a re-analysis of the deposited data

How the results depend on the processing

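Over 20 alternative settings, the median of the members was above that of all tested genes each time (0.09 to 0.19 for the members), while the number of calls moved. Without a filter on low values, 16 members were higher (12 large and 4 small). Members lower numbered 2 with a mean FPKM of at least 5, 2 with protein-coding genes alone, 2 with quantile normalization, 1 with array weights and 1 with voom. The difference of the medians, large minus small, was 0.0199 at the FPKM minimum of 5 and 0.01 with quantile normalization, where 12 large subunit genes were higher and the medians were 0.14 for the members and 0.14 for the large subunit. Scaled to TPM, 10 members were higher and 4 lower (6 large and 4 small higher), with medians of 0.0878, 0.0912 for large and 0.0560 for small, summed levels at 1.07 and 1.06 times Control, and 1084 of all genes higher. With the GC and length correction, 8 were higher and 4 lower (5 large and 3 small higher), with medians of 0.098 for the members and 0.098 for the large subunit, and the difference between subunits reversed to -0.0069. The replicate block with that correction gave 9 higher and 4 lower (6 large and 3 small higher), the same medians and difference, and 1088 of all genes higher. Against a 1.2-fold change, 1 member (1 large, 0 small) and 293 of all genes were higher and 252 lower. Among members without overlapping or similar genes, 12 were higher (10 large and 2 small), with a median of 0.10 for the small subunit and a difference of 0.0600. Leaving out 1 library at a time gave 14 to 25 members higher and 0 to 1 lower, 11 to 19 large and 3 to 9 small subunit genes higher, medians of 0.15 to 0.19 for the members, 0.15 to 0.20 for large and 0.12 to 0.18 for small, a difference of 0.0078 to 0.052, and 1211 to 1497 of all genes higher and 1129 to 1361 lower. Such fits test fewer libraries. For the other settings the cause was not tested. Replicate numbers did not pair the libraries (correlations of deviations -0.020, 0.016 and -0.052), and the replicate block alone gave 26 members higher and 0 lower, and 1440 of all genes higher and 1212 lower. With TPM, the GC and length correction or 1 library left out, 22 members changed sign, 0 of them among the 27 higher by limma. Among members whose values are given in the report, those that changed sign under any setting were Mrps21 (TPM -0.0049, quantile -0.0030, GC and length with or without block -0.047, leaving out 1 library -0.028 to 0.16), Mrpl33 (TPM -0.0051, leaving out 1 library -0.012 to 0.14), Mrps35 (median centring 0.0038, quantile 0.00098, GC and length 0.058, leaving out 1 library -0.031 to 0.014), Mrpl48 (TPM -0.048, leaving out 1 library -0.035 to 0.079), Mrpl45 (GC and length -0.012), Mrpl10 (GC and length -0.052), Mrpl11 (TPM -0.012, GC and length -0.0012), Mrps18c (TPM -0.030, GC and length -0.11, leaving out 1 library -0.032 to 0.091), Mrpl23 (TPM -0.038, leaving out 1 library -0.027 to 0.092), Mrps18b (leaving out 1 library -0.10 to 0.022) and Mrps11 (GC and length -0.0048). With 3 libraries a group and 212 to 4071 fragments a member, differences of a few percent could not be resolved.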
